A study of Rattus norvegicus with 8 samples.

Results

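Ribosomal protein genes encode the proteins of the cytosolic ribosome, and their transcripts were followed here through the 3′ ends of hypothalamic RNA from rats. The ribosomal protein genes were taken by symbol, as Rpl or Rps followed by a number and at most 1 further letter (a, x, y or l), together with Rplp0, Rplp1, Rplp2 and Rpsa. The rule gave 67 genes of the 18003 gene symbols in the files, 39 of the large and 28 of the small subunit, with 107 of the 98356 sites. Rps6, Rplp2 and several other ribosomal protein genes have no entry under such symbols and were not analysed here. The shares and ratios below therefore cover the 67 genes found and not the whole family. Hypothalamic tissue (mediobasal, by the series description) of 8 adult male Long-Evans rats was sequenced by whole transcriptome termini site sequencing (WTTS-Seq), which reads RNA at its poly(A) end and so counts alternative polyadenylation (APA) sites. The cannabis group held 4 rats (replicates 1, 2, 3 and 5) that were exposed for 10 min to vapor of whole cannabis plant matter with THC and CBD, and the 4 air-treated controls (replicates 1, 2, 3 and 4) sat in the same kind of chamber with an empty vaporizer. All rats were free-feeding and habituated to the chamber, food was then taken away, and tissue was taken 1 hr after the exposure. The samples are pieces of whole tissue with many cell types, so a difference in the number of cells of a type and a difference in RNA per cell cannot be told apart.

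The large subunit joins amino acids and holds the exit tunnel of the growing peptide, and the small subunit reads the mRNA. Cells make the ribosomal proteins in about equal numbers, and many of their mRNAs begin with a C and a run of pyrimidines, the 5′ terminal oligopyrimidine (TOP) motif, through which mTOR and Larp1 control their translation. Neurons depend on this supply for protein synthesis at synapses. Translation itself was not measured, and the values below are levels of polyadenylated RNA. Values are normalized counts, which are reads on a site divided by the size factor of the library, summed over the sites of a gene. Each read marks 1 RNA end, so the levels of different genes were compared without division by transcript length.

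The TOP motif is a feature that the choice by symbol did not use, so the annotated starts are shown for the most abundant genes. RefSeq start windows (build GRCr8) were found for 52 of the 67 genes, and 22 of them (42.3%) had, at the annotated start, a C followed by 4 bases that are each C or T, read on the strand of the gene. The same held for 722 of 27457 genes with a window (2.63%). The windows below hold 15 bases before and 15 bases from the start onward, 5′ to 3′, and capitals mark the unbroken run of C and T that begins at the start. They are given for the 5 most abundant large subunit genes and for 4 abundant small subunit genes.
Rpl35, chr3:43165907-43165936, minus strand: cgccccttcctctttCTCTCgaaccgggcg
Rpl37a, chr9:81748076-81748105, plus strand: gcatgcccgttgcgtCTCTTCCTCTTCggg
Rpl21, chr12:13386139-13386168, minus strand: ttcctttccgccggggcagccatcttccag
Rpl22, chr5:168117946-168117975, plus strand: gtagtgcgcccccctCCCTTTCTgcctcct
Rpl5, chr14:1995211-1995240, minus strand: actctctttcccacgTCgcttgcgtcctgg
Rpsa, chr8:128728864-128728893, plus strand: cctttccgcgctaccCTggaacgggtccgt
Rps24, chr16:96502-96531, plus strand: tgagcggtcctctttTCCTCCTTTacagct
Rps21, chr3:187724023-187724052, plus strand: gaacgagccacttccTTTCTgtgttctccg
Rps15, chr7:10068101-10068130, minus strand: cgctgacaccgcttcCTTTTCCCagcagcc
Of these 9 windows, those of Rpl35, Rpl37a, Rpl22 and Rps15 began with a C and at least 4 more pyrimidines. Those of Rps24 and Rps21 began with a T in a long run, and Rpsa and Rpl5 had a run of 2 bases at the annotated start. Rpl21 had none. The 3′ end reads do not show where transcription started, and annotated starts can be off by a few bases. The median log2 fold change between cannabis-exposed rats and controls was 0.08 in the 22 genes with the motif and 0.10 in the 30 without it.

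The levels of the ribosomal protein genes spanned a wide range, from 2.03 to 3766 normalized counts on average, although their proteins are used in about equal numbers. These are levels of the entries under the gene symbols. Reads of a gene that were counted under another symbol, or at sites without a symbol, are not part of them. How many such reads there were was not tested, so a low value need not mean that the RNA was scarce. Rpl35, which lies beside the exit tunnel, and the zinc-binding Rpl37a had the highest means over the 8 libraries, 3766 and 3561 normalized counts. In the order of replicates given above, Rpl35 had 2709.9, 3396, 3652 and 4822 normalized counts in controls and 5603, 2781, 2289.8 and 4872 in cannabis-exposed rats. Rpl37a had 3449.7, 4009, 3229 and 3587 normalized counts in controls and 4161, 2503, 3577 and 3974 in cannabis-exposed rats. The ranges of both genes overlapped, so that their order was not fixed in single libraries. The next large subunit genes were Rpl21 with a mean of 2043, Rpl22 with 1565 and Rpl5 with 1269, the last a partner of the 5S RNA in ribosome assembly. Among the most abundant small subunit genes were Rpsa, which doubles as a laminin receptor precursor, with 1387, Rps24 with 1025, Rps21 with 967 and Rps15 with 802. Rpsa had 1714, 1445, 1122 and 1380.2 normalized counts in controls and 1097, 1515, 1516 and 1310.3 in cannabis-exposed rats. The ranges of these 4 genes again overlapped from each to the next. Rplp1, a protein of the stalk that recruits elongation factors, had a mean of 1229, against 41.1 for Rplp0, the base of the same stalk. Rpl41, the smallest ribosomal protein, had 821.

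At the other end, 11 of the 67 genes had a mean under 10 normalized counts. Rps19, a gene mutated in Diamond-Blackfan anaemia, had the lowest mean, 2.03, with 1 to 4 reads in every library. Rpl37 had 2.27, Rpl11 had 2.63, Rpl6 had 3.93 and Rps27a, which is made as a fusion with ubiquitin, had 4.28. The paralogues whose symbols end in l were also low or moderate, with means of 5.48 for Rps17l, 5.74 for Rpl39l and 147 for Rps27l. Counts were concentrated in few genes. The 10 most abundant genes held 56.5% and the 20 most abundant 80.5% of all counts of the 67 genes. The mean level was at least 1000 in 11 genes, 8 of the large and 3 of the small subunit, and the median level was 266 in the large and 95.9 in the small subunit.

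**Figure D1:**
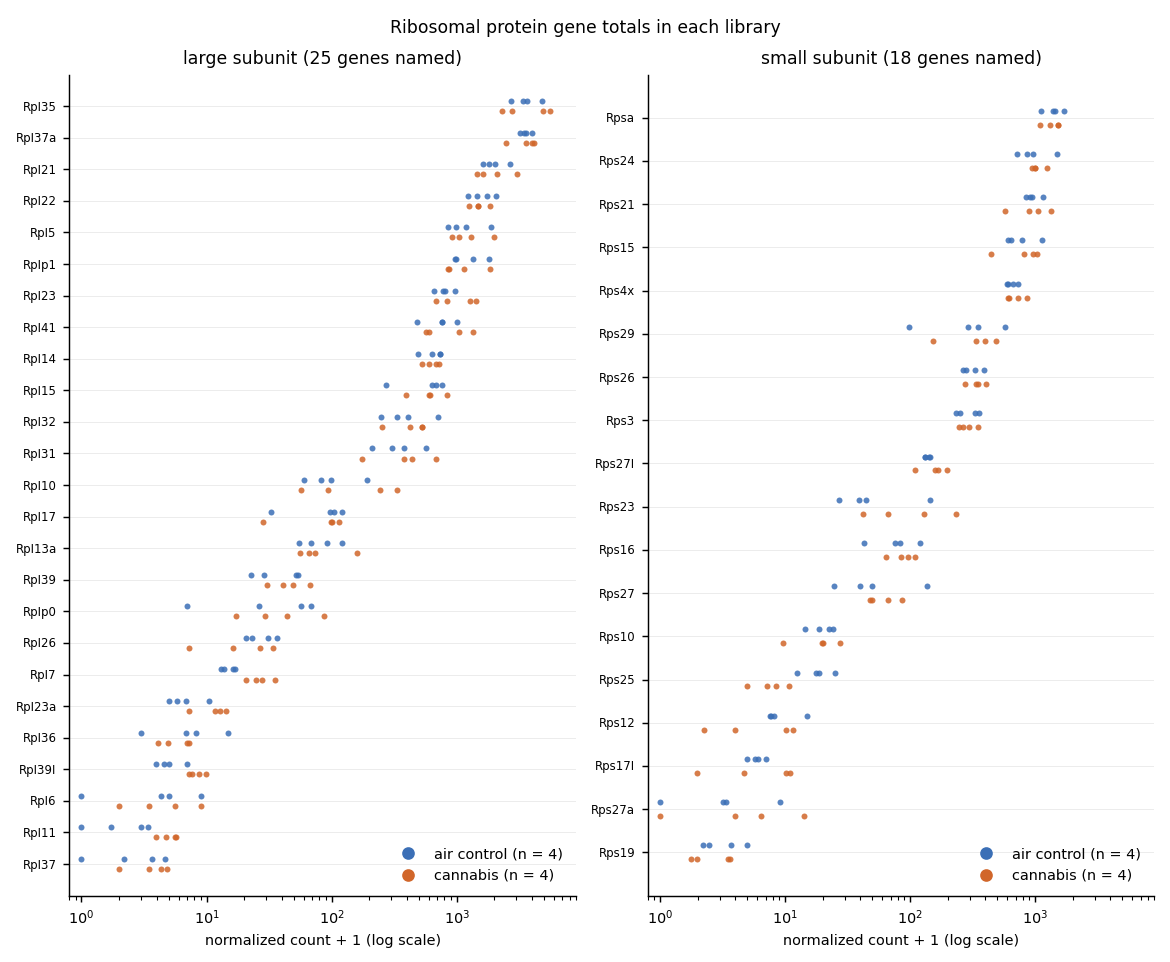
Level of the 43 ribosomal protein genes named in the text, in each library, as normalized count + 1 on a log scale, with large subunit genes on the left and small subunit genes on the right. Each point is 1 library, in blue for air-treated controls and orange for cannabis-exposed rats. Levels run from a mean of 2.03 (Rps19) to 3766 (Rpl35), and the groups overlap in 39 of the 43 genes.

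The 67 genes together took 1.25% to 1.52% of the normalized counts of a library. The share was 1.25%, 1.40%, 1.44% and 1.41% in controls and 1.51%, 1.33%, 1.30% and 1.52% in cannabis-exposed rats. The means were 1.38% ± 0.0846 and 1.42% ± 0.114 (SD over 4 rats each). The groups overlapped between 1.30% and 1.44%, and 2 of the 4 cannabis-exposed rats lay above every control. The widest 95% Wilson interval of a library was 1.39% to 1.44% (air control 4), so the spread between rats exceeded the counting error. No molecular identifiers are described for these reads, and this and the other intervals of shares cover counting error only. Large subunit genes held 1.82 to 3.10 times the counts of small subunit genes. This ratio was 2.02, 2.201, 2.45 and 2.84 in controls and 3.10, 2.08, 1.82 and 2.79 in cannabis-exposed rats, and again the groups overlapped. From 65 to 67 of the genes had a read in each library, and after thinning to the 1159811 reads of the smallest library, 93 to 98.4 of the 107 sites were expected to have one.

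Library depth was from 1159811 to 3706778 reads on sites, with the fewest reads and the most sites without a read (26.1%) in air control 4. Of the 13 measured genes of the hypothalamic neuron list, 3 were higher in the cannabis group at P under 0.05 in limma (Avp, Oxt and Nkx2-1, against 1.31% of all symbols), and none of the other marker lists had a gene past this threshold. The summed level of the list ran from 7572 to 9616 normalized counts in the cannabis group against 3364 to 5708 in controls. Without Avp and Oxt, left out after their values were seen, it ran from 1818 to 2619.9 against 1521 to 1876 and the groups overlapped. The summed level of 3 endothelial genes, none of which passed the threshold, did not overlap between groups, at 93.0 to 115 in the cannabis group against 81.1 to 88.0 in controls. The sums of the remaining lists overlapped, among them choroid plexus (3.73 to 28.6 against 0 to 19.2) and pituitary (196 to 702 against 122 to 821). The part of these differences in the results on ribosomal protein genes was not tested.

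Whether a single exposure changed the level of ribosomal protein genes was asked with limma on log2(normalized count + 1), fitted over all 18003 gene symbols. No gene of the 67 passed an adjusted P of 0.1, which 0.00555% of all symbols passed. At an unadjusted P under 0.05 there were 3 of 67 (4.48%), against 2.41% of all symbols. Rpl7 and Rpl11 were higher (1.31% of all symbols were called higher) and Rps25 was lower (1.09% called lower) in cannabis-exposed rats. Rps25 was also the 1 gene of the 67 with P under 0.01, the threshold of the study for sites, which 0.278% of symbols passed. The count tests on recovered reads called the same 3 genes in edgeR (2.52% of all symbols) and Rpl7 and Rps25 in DESeq2 (2.18%). The 3 genes had means of 20.1 (Rpl7), 2.63 (Rpl11) and 12.2 (Rps25).

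Rps25 codes for a small subunit protein that is needed for initiation at internal entry sites of some RNAs. It had 24.1, 16.8, 11.4 and 17.9 normalized counts in controls and 7.45, 3.99, 9.84 and 6.14 in cannabis-exposed rats. Every cannabis-exposed rat lay below every control. The read numbers behind these values were 33, 14, 17 and 9 in controls and 6, 6, 10 and 8 in cannabis-exposed rats. The log2 fold change was -1.25 (95% confidence interval -2.11 to -0.39, limma P = 0.00789, adjusted P = 0.999), and the exact two-sided permutation P was 0.0286, the smallest that 4 against 4 rats can give. Rps25 was lower at P under 0.05 in all 18 alternative fits of the gene totals.

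Rpl7, a large subunit protein, was higher, with 15.4, 11.97, 12.8 and 15.9 normalized counts in controls and 19.9, 23.9, 26.6 and 34.6 in cannabis-exposed rats. The lowest cannabis-exposed rat, with 19.9, was above the highest control, with 15.9. The read numbers were 21, 10, 19 and 8 in controls and 16, 36, 27 and 45 in cannabis-exposed rats. The log2 fold change was 0.84 (95% confidence interval 0.16 to 1.53, limma P = 0.0193, adjusted P = 0.999, exact permutation P = 0.0286). With the row of its paralogue Rpl7l1 added, limma gave 0.34, which did not pass a P of 0.05. Nor did the 0.71 without cannabis replicate 5.

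Rpl11 forms a particle with Rpl5 and the 5S RNA that binds Mdm2 when ribosome assembly fails. It had 1, 2, 0 and 1 reads in controls and 3, 7, 3 and 6 in cannabis-exposed rats. On the normalized scale this gave 0.731, 2.39, 0 and 1.99 normalized counts in controls and 3.73, 4.65, 2.95 and 4.61 in cannabis-exposed rats. The groups did not overlap, but the values rest on 23 reads in all. The log2 fold change was 1.27 (95% confidence interval 0.07 to 2.47, limma P = 0.0398, adjusted P = 0.999, exact permutation P = 0.0286). The limma P was above 0.05 when any one of air control 1, air control 3, cannabis 1, cannabis 2 and cannabis 5 was left out, and the log2 fold change was 0.92 without air control 3. Its partner Rpl5, at a far higher level, had 855, 1178, 995 and 1879 normalized counts in controls and 1992, 1036, 920.1 and 1299 in cannabis-exposed rats, with a log2 fold change of 0.10 (95% confidence interval -0.52 to 0.71) and overlapping groups.

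Apart from these, Rpl39l was the only gene of the 67 whose groups did not overlap, which makes 4 of 67 (5.97%) against 1.98% of all symbols. This paralogue of Rpl39, known for its expression in testis, had 2.92, 3.59, 6.04 and 3.97 normalized counts in controls and 6.21, 6.64, 8.86 and 7.68 in cannabis-exposed rats. These values rest on 4, 3, 9 and 2 reads in controls and 5, 10, 9 and 10 in cannabis-exposed rats, 52 in all. The read numbers overlapped, and the gap from 6.04 to 6.21 was narrower than 1 read, worth at least 0.664 normalized counts. The log2 fold change of Rpl39l was 0.73, with a limma P of 0.111. Rpl23a (0.73, limma P of 0.111) and Rps23 (0.91, limma P of 0.118) were the next genes by limma P among those above 0. Among those below 0, Rpl26 (-0.59), Rps12 (-0.69) and Rpl36 (-0.33) had limma P values from 0.211 to 0.546. None of these passed the threshold, and all had overlapping groups except Rpl39l.

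Rps23, which lines the decoding centre, had the largest fold change of the genes with a mean of at least 50, and leaving out a single library changed its call. It had 43.1, 38.3, 144 and 25.8 normalized counts in controls and 41.0, 231, 65.9 and 128 in cannabis-exposed rats. Air control 3 stood far above the other controls, and without it the log2 fold change was 1.41 with a limma P of 0.0122 and an adjusted P of 0.999. Without cannabis replicate 1 it was 1.31 with a limma P of 0.0295.

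The 45 genes with a mean of at least 50 allow the closest statement about size. None had P under 0.05 in limma. Their log2 fold changes ran from -0.62 to 0.91 with a median of 0.09, and the 95% confidence interval lay within -1 to 1 for 38 of them. The interval reached 0.61 to either side in the median gene, and changes smaller than this could not be told from 0 in such a gene with 4 rats per group. The interval was narrowest for Rps4x, from -0.30 to 0.51. For Rpl35 it ran from -0.61 to 0.66, and for Rpl37a from -0.48 to 0.43.

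**Figure D2:**
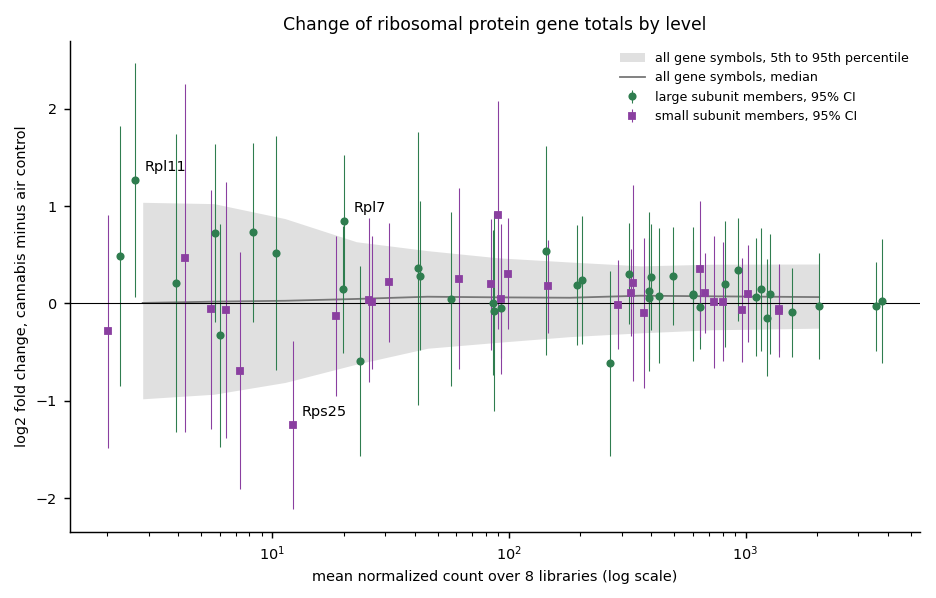
Log2 fold change of each ribosomal protein gene, cannabis minus air control, against its mean normalized count over 8 libraries on a log scale, with 95% confidence intervals from limma. The grey band spans the 5th to the 95th percentile of all gene symbols of a like level and the grey line is their median. Of the 67 genes, 61 lie inside the band, and the 3 genes with P under 0.05 (Rpl7, Rpl11, Rps25) have means of 20.1 or less.

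In limma 46 of the 67 log2 fold changes were above 0 (68.7%), against 56.4% of all 18003 symbols, and the median was 0.10 against 0.05. The large subunit had 29 of 39 above 0 with a median of 0.13, and the small subunit had 17 of 28 with a median of 0.03. On recovered reads 35 of the 67 were above 0 (52.2%) both in edgeR and in DESeq2, against 50.5% and 50.1% of all symbols. Without air control 4 it was again 35 of 67, against 49.3%, with a median of 0.03. Without cannabis replicate 2 it was 38 of 67 (56.7%), against 51.6%, and with the replicate number as a block, which leaves out air control 4 and cannabis 5, also 38, against 49.4%. The share above 0 therefore differed with the count model and with single libraries.

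Values of 1 gene differed widely between rats of 1 group. The median coefficient of variation within groups was 32.1% for the 45 genes with a mean of at least 50, against 25.4% for the 6104 symbols at that level. With a mean of at least 200 it was 31.4% for 33 genes against 23.1% for 1881 symbols, and these differences were not tested. Counting error alone was small beside this spread, which was 7.74 times the counting error in the median ribosomal protein gene. Rps23 (79.3%), Rpl10 (69.2%), Rps27 (60.9%) and Rps29 (50.9%) were among those that varied the most. Rps4x (13.9%), Rpsa (16.1%), Rpl37a (16.1%), Rpl14 (16.3%) and Rps26 (16.9%) varied the least.

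The spread had a shape that crossed the groups. Air control 4 and cannabis 1 deviated from their group means in the same direction, with a correlation of 0.757 across the 45 genes and 0.623 across all 6104 symbols. These are descriptions across genes, which share the depth and composition of their library. These libraries were the 2 lowest of 8 for 14 of the 45 genes (31.1%, against 20.8% of all symbols), and the 2 highest for 7 (15.6%, against 13.5%). Air control 3 and cannabis 2 also deviated together, with 0.627 across the 45 genes and 0.464 across all 6104 symbols. They were the 2 highest for 11 of the 45 (24.4%, against 8.57%) and the 2 lowest for 5 (11.1%, against 5.11%).

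Rpl31, Rpl5 and Rpl21 were among the genes high in air control 4 and cannabis 1, and Rpl17 among those low there. Rpl31 had 304, 382, 211 and 566 normalized counts in controls and 684, 173, 381 and 435 in cannabis-exposed rats. In each group its highest value was in one of these libraries. Rpl17 had 121, 103, 96.0 and 31.8 normalized counts in controls and 27.3, 113, 99.4 and 98.3 in cannabis-exposed rats, and its lowest value in each group was in the same libraries. Genes of both subunits stood on each side. Rpl10, a late-joining protein next to the catalytic centre, had 81.9, 98.2, 191 and 59.6 normalized counts in controls and 55.9, 330.1, 92.5 and 243 in cannabis-exposed rats, with the high values in air control 3, cannabis 2 and cannabis 5. Left out together, air control 4 and cannabis 1 made no change to the number of genes with P under 0.05, which was 3, while the share of all symbols called was 3.14% against 2.41%, and the median log2 fold change was 0.05. They were chosen for this after the values had been seen.

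**Figure D3:**
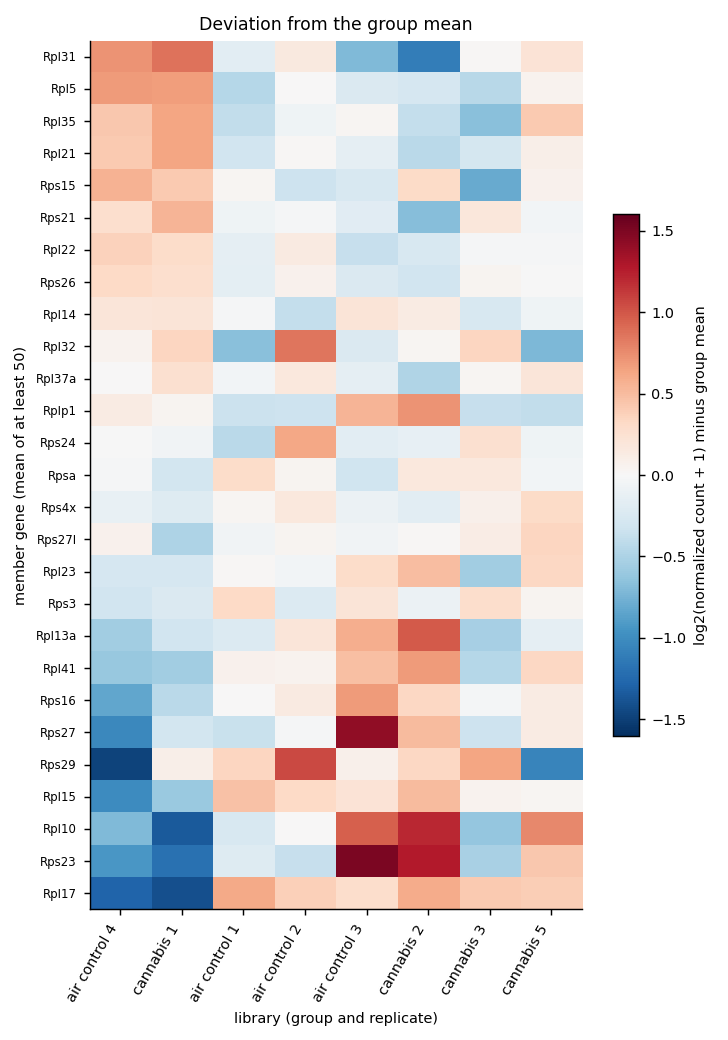
Deviation of 27 named ribosomal protein genes with a mean of at least 50 from the mean of its own group, in log2(normalized count + 1), with red above and blue below the mean. Columns are libraries, with air control 4 and cannabis 1 placed first, and rows are ordered by the mean deviation in these 2, from Rpl31 at the top to Rpl17 at the bottom.

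Ribosomal protein genes used few 3′ ends. A single site was found for 42 of the 67 genes, 15 had 2 sites, 7 had 3, Rpl23 had 4, and Rpsa and Rpl15 had 5. Among genes with a mean of at least 50, 55.6% of the ribosomal protein genes had a single site against 16.8% of all symbols, and the mean number was 1.73 against 6.38. The median share of counts on the top site, the site with the largest sum, was 99.1% against 73.2%. Additional sites of several abundant genes held few counts. The second site of Rpl35 held 2.83 normalized counts on average against 3763 on the top site, and the other sites of Rpl22 held 22.2 against 1542. For Rps24, whose mRNA is known for alternative splicing near its 3′ end, the other sites held 64.8 against 960.

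A few genes divided their reads. Rps16 had the lowest top-site share among genes with a mean of at least 50, with 59.2%, 59.4%, 60.9% and 28.6% in controls and 41.2%, 65.6%, 71.8% and 29.3% in cannabis-exposed rats. The lowest of these, in air control 4, rests on 6 of 21 reads (95% Wilson interval 13.8% to 49.96%). Rps26 had 62.3%, 66.7%, 47.6% and 61.5% in controls and 72.2%, 25.2%, 59.2% and 47.9% in cannabis-exposed rats. Its lowest share, in cannabis 2, was 103 of 409 reads (21.2% to 29.6%), and its highest, in cannabis 1, was 236 of 327 reads (67.1% to 76.7%). These intervals do not touch, so that the use of its ends differed between rats of 1 group by more than counting error. Rpsa had from 53.6% to 70.9% on its top site, with most of the rest on a second site with a mean of 512 normalized counts. Rpl13a, known for translational silencing in interferon responses, had from 55.6% to 94.1%. Rpl23 had from 90.2% to 96.6% in controls, 81.8% in cannabis 1 and from 97.1% to 98.3% in the other cannabis-exposed rats.

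Whether the use of the top site moved with cannabis exposure was tested in limma on log2((top site + 1)/(other sites + 1)), over the 5080 symbols with at least 2 sites and a mean total of at least 50. Of the 20 ribosomal protein genes among them none had P under 0.05, against 2.44% of all such symbols. Among the smallest P values were those of Rps3 (0.312), Rpl35 (0.324), Rps26 (0.392) and Rpl23 (0.394). The difference in the mean share of Rps26 was -8.40 percentage points, from 59.5% ± 8.27 in controls to 51.1% ± 19.9 in the cannabis group (SD over 4 rats each, exact permutation P = 0.543). For Rpl23 the call depended on 1 library, since without cannabis replicate 1 its log2 ratio was 1.47 higher in cannabis-exposed rats with a limma P of 0.0271 (adjusted P = 0.968).

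**Figure D4:**
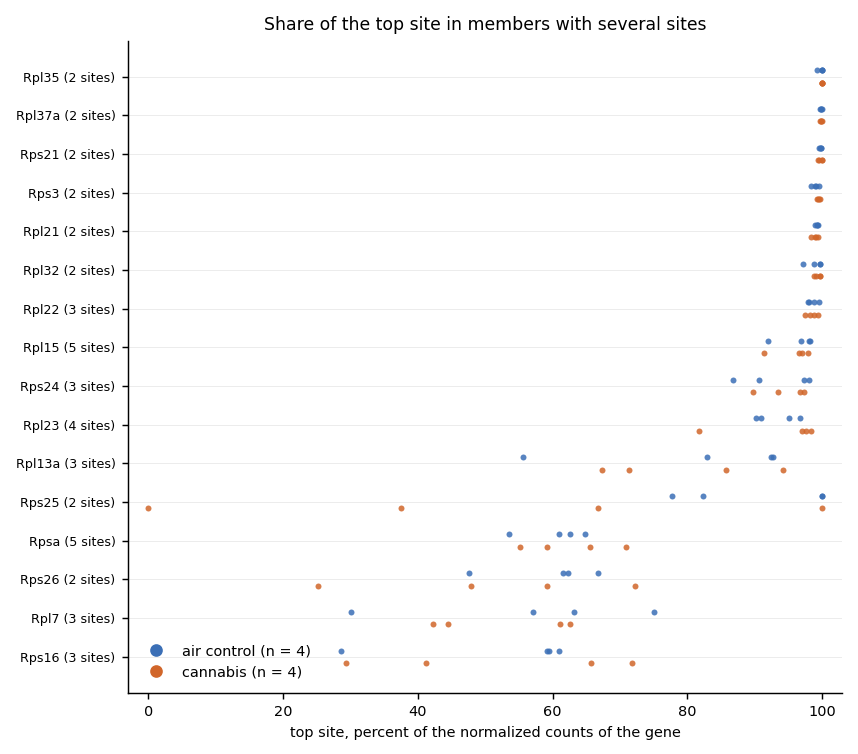
Share of the normalized counts of a gene on its top site, in percent, for 16 named ribosomal protein genes with at least 2 sites. Each point is 1 library, blue for air-treated controls and orange for cannabis-exposed rats. Most genes have a mean share above 90%, while Rps16, Rps26, Rpsa and Rpl13a divide their reads. So do Rpl7 (30% to 75%) and Rps25 (0% to 100%), which rest on few reads. The 2 groups overlap.

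In the site fit over 98356 sites, 2 of the 107 ribosomal protein sites had P under 0.05 (1.87%), against 3.03% of all sites, and 1 had P under 0.01 (0.935%, against 0.381%). These were the single site of Rpl11 and the top site of Rps25, the first higher (1.27% of all sites were called higher) and the second lower (1.76% called lower). No site of the 107 passed an adjusted P of 0.1, which 0.00102% of all sites passed. On recovered reads edgeR called 3 of the 107 sites (2.91% of all sites) and DESeq2 called 1 (1.86%), the top site of Rps25. The groups did not overlap at 3 sites (2.8%, against 2% of all sites), those of Rpl11 and Rpl39l and the second site of Rpl15. The top site of Rps25 had 24.1, 16.8, 9.40 and 13.9 normalized counts in controls and 4.97, 0, 9.84 and 2.30 in cannabis-exposed rats. Cannabis 2 had no read there. The log2 fold change was -2.08 (95% confidence interval -3.39 to -0.78, limma P = 0.00326, adjusted P = 1.00, exact permutation P = 0.0571), and the groups overlapped through air control 3 and cannabis 3. The second site of Rps25 had 0, 0, 2.01 and 3.97 normalized counts in controls and 2.48, 3.99, 0 and 3.84 in cannabis-exposed rats, with a log2 fold change of 0.62 that did not pass the threshold. The top site held 68 of the 73 reads of Rps25 in controls and 17 of the 30 in cannabis-exposed rats. In cannabis 2 it was 0 of 6 reads, which allows a share of up to 50% when a count of 0 is read as up to 3 reads, and the upper end of the 95% Wilson interval is 39.0%. The gene was below the level of 50 set for the test of the share, and the exact permutation P of the share was 0.171.

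Many genes in mammalian genomes are processed copies of ribosomal protein mRNAs, and a read from a gene can map to its copy. The files name 27 rows as copies of 17 of the 67 genes, by the symbol of the gene and -ps or l with a number. These include Rpl22l1 and Rpl7l1, which are expressed paralogues and not processed copies. The search needed a number after Rpl or Rps. Copies named after Rplp0, Rplp1, Rpsa or a paralogue symbol ending in l were therefore not looked for and are not in the shares below. The copies held 13.7% to 24.8% of the counts of genes and copies together, with 19.0% ± 1.70 in controls and 19.6% ± 5.36 in the cannabis group (SD over 4 rats each). The cannabis-exposed rats lay on both sides of the controls. For 10 of the 17 genes the copies had a higher mean than the gene itself, in Rpl7 through its paralogue.

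The most abundant copy, Rps4x-ps9, had 1817, 1183, 1342 and 2052 normalized counts in controls and 1147, 1265, 1064 and 1358 in cannabis-exposed rats. Its parent Rps4x, the X-linked form of a small subunit protein, had 662, 723, 606 and 596 normalized counts in controls and 602, 615, 734 and 856 in cannabis-exposed rats, so that the row of the copy was above that of the gene in all 8 libraries. Rps21-ps1 had a mean of 1330 against 967 for Rps21, Rpl32-ps3 had 1304 against 431 for Rpl32, and Rpl31l4 had 828 against 392 for Rpl31. Rpl37a-ps3 had 704, below the 3561 of Rpl37a. The ratio of copies to gene was largest in Rps27a, whose 4 copies held 296 normalized counts against 4.28 for the gene. Rps10l1 had 372 against 18.7 for Rps10. The low levels of Rps27a, Rps10, Rps12 and Rpl6 were therefore levels of their rows. Whether reads of these genes were counted on the rows of their copies was not tested. With copies added to their genes, the number of genes with P under 0.05 was again 3 of 67, against 2.41% of all symbols, with Rps12 (-0.68, limma P of 0.0241) in place of Rpl7. Most of this sum was the row Rps12l3, with a mean of 92.0 against 7.30 for Rps12. Alone, Rps12l3 had a log2 fold change of -0.87 (limma P of 0.0172, adjusted P = 0.999), and Rps12 had a limma P of 0.244. The groups of Rps12l3 overlapped, with 67.0 to 187 normalized counts in controls and 39.2 to 75.8 in cannabis-exposed rats. It was the only row of the 27 copies with a limma P under 0.05, beside 2.41% of all symbols. Rps25, Rpl11, Rps19 and Rpl37 had no row named as a copy in this way, and copies of Rplp0 were not looked for. Copies under other names or among sites without a symbol were not searched for, so the levels of these genes were also levels of their rows.

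**Figure D5:**
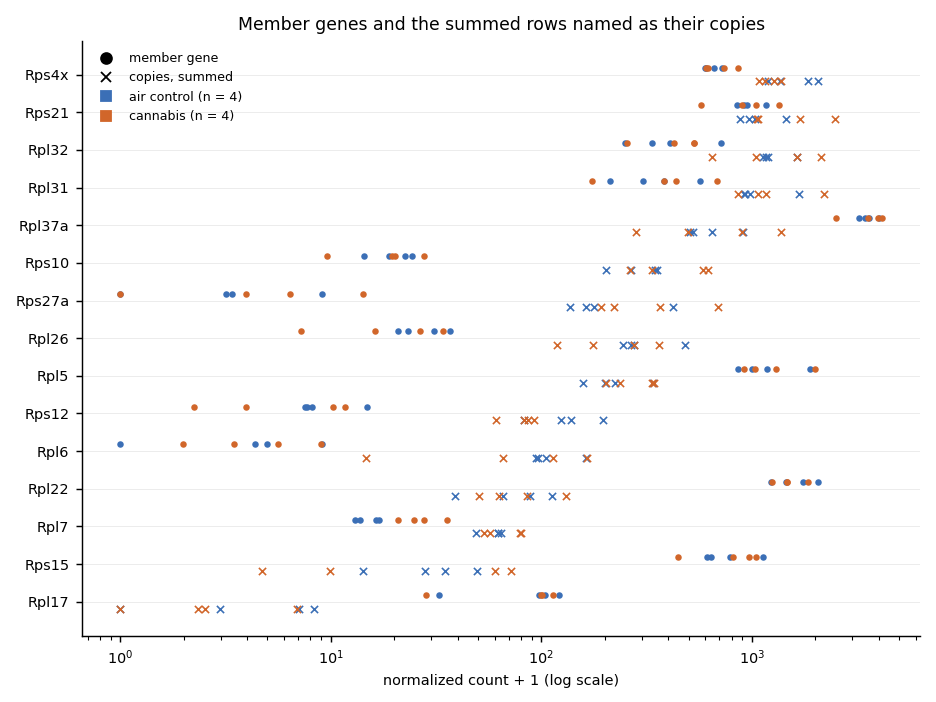
Normalized count + 1, on a log scale, of 15 ribosomal protein genes with copies in the files (points) and of their copies summed (crosses) in each library, blue for air-treated controls and orange for cannabis-exposed rats. In 10 genes, among them Rps27a, Rps10 and Rps4x, the crosses have a higher mean than the points.

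Genes that work with the ribosome were looked up in lists. None of the 9 elongation factors, 24 measured ribosome biogenesis factors, 12 regulators of TOP mRNAs or 6 measured genes of other TOP mRNAs and ribosome-bound proteins had P under 0.05. Eef1a1, which brings aminoacyl-tRNA to the ribosome and is itself a TOP mRNA, had a mean of 2935 ± 214 in controls and 2989 ± 113 in the cannabis group (SD over 4 rats each), with a log2 fold change of 0.03 (95% confidence interval -0.35 to 0.41). Its coefficient of variation was 5.79%, below that of every ribosomal protein gene with a mean of at least 50. Eef1a1 was not picked by its P value, and it varied the least of the 9 elongation factors. The others had from 16.3% (Eef1d) to 50.3% (Eef1b2), among them Eef2 with 36.6% and Eef1g with 43.9%. Of 31 measured initiation factors 1 was lower, Eif5b, which joins the subunits (-1.16, limma P of 0.0209, adjusted P = 0.999). Of 70 mitochondrial ribosomal proteins 1 was higher and 1 lower. These shares of 3.23% and 2.86% stand beside 2.41% of all symbols and are not read as results about the lists. Fau, a ribosomal protein gene with a ubiquitin-like fusion whose symbol falls outside the rule, had a log2 fold change of 0.36, with a limma P of 0.516.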

How the data were processed

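The authors filtered and trimmed the reads, used TMAP with the Rnor_6.0 genome, joined neighbouring read ends into APA sites, dropped those below 16 reads and gave gene names with Cuffcompare. The deposited signal is, for each library, the reads on a site divided by a DESeq2 size factor. All values were whole multiples of 1 read, worth 0.664 to 1.99 normalized counts, so reads were recovered (100% of values within 0.01 of a whole read).

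Rows of the 8 libraries were joined by row order and summed by symbol. The genes and lists were chosen with earlier results of these data known. Limma 3.58.1 (R 4.3.3) with a mean-variance trend was fitted on log2(normalized count + 1) without covariates, which understates changes of low genes, with Benjamini-Hochberg adjustment over all features, after a test on simulated data. The study's own cutoffs, P under 0.01 and adjusted P under 0.1, were kept beside P under 0.05. Single values had exact two-sided permutation tests. Alternatives were edgeR 4.0.16 and DESeq2 1.42.0 on recovered reads, other pseudocounts and scalings, no trend, level filters, copies added, a replicate block and each library left out.

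Genes named were, 5 each, the most abundant of each subunit, the smallest P in each direction and for the top-site share, the most sites, the lowest shares, and the largest and smallest spread, together with sites at P under 0.01, paralogues, genes of special role and the 5 most abundant copies. Rpl6, Rpl17, Rpl31, Rps10, Rpl37, Rps19 and the row Rps12l3 were chosen after their values were seen. Results of some genes that fall under these rules are not reported here, and figures with gene labels show only the genes named. Start windows came from RefSeq (GRCr8), matched by symbol, and positions of sites are not given.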

Additional observations from a re-analysis of the deposited data

Results flagged for a closer look

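A value that stood far from the others of its group of 4 rats was found in 6 of 104 groups examined, where chance flags about 1 in 20 groups. Among gene totals, Rps23 had 144 normalized counts in air control 3 against 25.8 to 43.1 in the other controls, Rps12 had 13.9 in air control 4 against 6.58 to 7.18, and Rpl13a had 158 in cannabis 2 against 55.1 to 72.2 in the other cannabis-exposed rats. Among top-site shares, Rpl23 had 81.8% in cannabis 1 (556 of 680 reads) against 97.1% to 98.3%, Rps16 had 28.6% in air control 4 (6 of 21 reads) against 59.2% to 60.9%, and Rpl35 had 99.2% in air control 1, where all reads were on the top site in the other controls. Of these 6 values, 2 were in air control 4, the library with the fewest reads, and the part of depth in them was not tested.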

How the results depend on the processing

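No ribosomal protein gene, site or top-site share passed an adjusted P of 0.1 under any alternative. The number of genes with P under 0.05, 3 of 67, ranged from 1 (without cannabis replicate 5) to 5 (without cannabis replicate 1 or 3) with each library left out. The share of all symbols called moved too, from 2.41% to 1.63% without cannabis replicate 5, 4.18% without cannabis replicate 1 and 2.83% without cannabis replicate 3. The number of sites, 2 of 107, ranged from 1 to 5 (without cannabis replicate 1, where 4.14% of all sites were called against 3.03%), and was 1 with a pseudocount of 5, with a mean of at least 10 and in DESeq2. The number of top-site shares, 0 of 20, ranged from 0 to 1 (Rpl23, without cannabis replicate 1, with 4.31% of all shares called against 2.44%). With the replicate number as a block, which leaves out air control 4 and cannabis 5, there was 1 gene (Rps25, with 1.32% of all symbols called), 1 site and no top-site share. Libraries with the same number did not deviate together (correlations of -0.271, 0.134 and -0.101 over 6104 symbols), so the numbers are not taken as pairs. None of these libraries correlated best with the one of its own number. The block gave log2 fold changes of -1.20 for Rps25, 0.77 for Rpl7 and 1.39 for Rpl11, the last 2 with a limma P above 0.05. Rps25 was lower in all 18 alternatives (P from 0.0039 to 0.0378), Rpl7 passed in 15 of 18 and Rpl11 in 10 of 17, with the same direction in each. The median log2 fold change of the 67 genes, 0.10, was 0.03 to 0.18 with a library left out. The difference in the share of counts, 0.0388 percentage points, ranged from -0.0023 to 0.0756, and that in the share on copies, 0.635 points, from -1.10 to 2.59. The causes were not tested.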
